A study of Mus musculus with 8 samples.

Results

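The genes of sterol and fatty acid synthesis were compared between regulatory T-cells (Tregs) differentiated from WT and Alox15-/- mice. Members were chosen by symbol: 33 genes that encode the enzymes from HMG-CoA to cholesterol, the enzymes that make, elongate and desaturate fatty acids, the regulators of both pathways and 1 sterol carrier. The deposited table listed 32 of them among its 28239 symbols, and all 32 reached 2 CPM (counts scaled to a common library size) in at least 4 libraries, as did 12700 genes in all. Fdps was not analysed here.

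Naive splenic CD4+ T-cells from C57BL/6 WT mice or from mice lacking Alox15, the gene of the lipid mediator enzyme 15-lipoxygenase, were cultured for 2 days with IL-2, TGF-β and beads carrying antibodies to CD3 and CD28. Each group held 4 libraries, made by MACE-Seq, which counts transcripts by reads near their 3′ ends, and both groups received the same culture. The study used young adult mice of both sexes, and the labels do not give the age or sex behind each library. The study's figure legend gives 4 Alox15-/- mice for this experiment and no number of WT mice. The labels do not say whether libraries came from separate cultures, so that p-values measure the spread between these libraries. Alox15 is deleted in every cell of the knockout strain, not in T-cells alone. The study lists Charles River as the source of its WT mice and The Jackson Laboratory as that of its Alox15-/- mice. Supplier and genotype therefore cannot be told apart in this design.

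Total counts ran from 3723151 to 9538962 with a median of 5907410.5. Alox15 transcripts were higher in the libraries labelled Alox15-/- than in the WT libraries, at 66.8 ± 3.18 against 5.28 ± 3.59 CPM (SD, n = 4 each), with a log2 fold change of 3.65 and an adjusted p of 1.08e-05 in edgeR's quasi-likelihood test. The 3′ reads may lie outside the deleted part, which the sources used here do not give, so this gene neither checks the labels nor measures the enzyme. T-cell marker sums were similar in range, at 1969 to 2241 CPM against 2155 to 2398 CPM in WT libraries, and Treg marker sums at 1823 to 1973 against 1852 to 2078 CPM. Foxp3, the defining Treg factor, was at 93 ± 17 against 124 ± 47.2 CPM (SD, n = 4 each, with an edgeR adjusted p of 0.655). Its levels were 71.4, 95, 92.6 and 113 CPM in replicates 1 to 4 labelled Alox15-/-. In WT they were 109, 101, 194 and 92.9 CPM, so that WT replicate 3 raised the WT mean. Erythroid transcripts stood apart, at 903 to 3473 CPM in the libraries labelled Alox15-/- and 33.7 to 122 CPM in WT, and were highest in replicates 2 and 3. Myeloid sums were 47.9 to 328 against 11.1 to 19.2 CPM, mast cell and basophil sums 137 to 339 against 58.6 to 82.9 CPM, eosinophil sums 21.3 to 73.7 against 1.25 to 10.4 CPM, and NK and γδ T-cell sums 69.1 to 128 against 23.6 to 36.5 CPM. B-cell sums were 5.77 to 7.9 against 8.27 to 19.7 CPM and CD8 T-cell sums 12 to 21.8 against 21.3 to 31.6 CPM. In the NK and γδ T-cell list, mean Trdc was 65.3 against 18.3 CPM, Tcrg-C4 24.3 against 6.27 and Tcrg-C1 9.05 against 2.02. Eomes, the only other tested marker there, was at 5.31 against 3.25 CPM (edgeR adjusted p 0.592). Of the tested B-cell markers, Ms4a1 had a log2 fold change of -2.64 (edgeR adjusted p 0.00413) and Cd79b 0.11 (edgeR adjusted p 0.967). The deposited counts listed 7 of 8 NK and γδ T-cell markers and 7 of 8 erythroid markers. No marker that was listed was at 0 in all libraries. The filter on low counts was passed by 2 of 8 eosinophil, 4 of 8 NK and γδ T-cell and 2 of 6 B-cell markers. In bulk RNA of this kind, fewer cells of a type and less RNA per cell cannot be told apart.

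Cholesterol is built from acetyl-CoA through mevalonate, squalene and lanosterol, and fatty acids are built from the same acetyl-CoA through malonyl-CoA. Both pathways are driven by the SREBP transcription factors, encoded by Srebf1 and Srebf2, which are made as membrane precursors in the endoplasmic reticulum. SCAP carries them to the Golgi for cleavage when sterols are low, and the INSIG proteins hold SCAP back when sterols are high. Activated T-cells use these pathways to build membrane before they divide, and in Tregs the mevalonate branch is known for its part in suppressive function.

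Promoters are shown for 4 members, to let a regulator and its target enzymes be seen at the level of the letters that SREBPs and their partner factor NF-Y are known to bind. Sequences are from RefSeq, build GRCm38.p6, and hold the 250 bases before the first start listed for the gene, written 5′ to 3′ on the gene's strand. Capitals mark the sterol regulatory element TCACNCCAC and the CCAAT box, read as CCAAT or, on the other strand, ATTGG. Hmgcs1, HMG-CoA synthase of the mevalonate route, has its window at chr13:119690101-119690350 on the plus strand. Fasn, fatty acid synthase, has it at chr11:120824548-120824797 on the minus strand, Insig2 at chr1:121332590-121332839 on the minus strand and Scap at chr9:110333038-110333287 on the plus strand.
Hmgcs1: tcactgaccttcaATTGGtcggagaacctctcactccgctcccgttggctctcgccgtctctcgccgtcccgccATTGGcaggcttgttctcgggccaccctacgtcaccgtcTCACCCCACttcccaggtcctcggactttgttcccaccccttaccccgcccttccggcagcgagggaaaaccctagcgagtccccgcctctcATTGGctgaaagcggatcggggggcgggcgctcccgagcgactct
Fasn: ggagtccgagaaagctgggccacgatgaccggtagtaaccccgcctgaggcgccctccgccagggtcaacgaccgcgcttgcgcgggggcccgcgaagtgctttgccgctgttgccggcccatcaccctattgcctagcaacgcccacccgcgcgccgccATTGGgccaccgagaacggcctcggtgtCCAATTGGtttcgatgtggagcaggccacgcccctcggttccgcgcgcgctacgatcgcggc
Insig2: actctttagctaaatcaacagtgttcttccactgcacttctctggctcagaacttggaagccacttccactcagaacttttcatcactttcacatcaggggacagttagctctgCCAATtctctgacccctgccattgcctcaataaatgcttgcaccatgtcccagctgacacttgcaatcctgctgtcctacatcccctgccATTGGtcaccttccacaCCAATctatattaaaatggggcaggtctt
Scap: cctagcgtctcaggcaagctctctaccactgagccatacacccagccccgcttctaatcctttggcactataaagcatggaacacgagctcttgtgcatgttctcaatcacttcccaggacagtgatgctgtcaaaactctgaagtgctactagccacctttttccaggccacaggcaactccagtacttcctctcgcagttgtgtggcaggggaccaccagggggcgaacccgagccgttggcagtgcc

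The windows of Hmgcs1, Fasn and Insig2 each held 3 CCAAT boxes, of which a pair overlapped in Fasn, and that of Scap held 0. A RefSeq promoter was at hand for 26 members, and a gene with several starts was counted where any of its windows held a motif. On either strand, CCAAT was found in 21 of the 26 (80.8%), against 41% of the 8629 tested genes with a promoter and 37.5% of all 27025 genes with one. The 5 without it were Scap, Acly, Acaca, Elovl6 and Fads2. TCACNCCAC was found in 1 of 26, Hmgcs1 (3.85%, against 1.25% of tested genes and 1.22% of all genes with a promoter). The E-box CACGTG was found in 6 of 26 (23.1%, against 10.1% and 6.86%), namely Hsd17b7, Sc5d, Dhcr7, Insig1, Scap and Elovl5, in Scap in a window other than the printed one. The GC box GGGCGG was found in 21 of 26 (80.8%, against 64.2% and 35.4%). None of these motifs contains another, all were searched on both strands, and a match is a run of letters, not a measured site.

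The question was whether the transcripts of this programme differed between Tregs of the 2 genotypes. Most members were slightly lower in the libraries labelled Alox15-/-, none passed the adjusted threshold, and the differences were small. Of 32 members, 29 had a log2 fold change below 0 (90.6%), against 51.8% of all tested genes, and the 3 others were Pmvk, Elovl5 and Ebp. The median log2 fold change was -0.22, or a median of 86.1% of the WT mean, against a median log2 fold change of -0.01 over all tested genes. The range was -0.54 for Scd1 to 0.15 for Pmvk. The members' libraries vary together, as described below, so that their directions are not independent of each other.

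None of the 32 had an adjusted p under 0.05 in edgeR's quasi-likelihood test, where 1.24% of all tested genes did (158 genes, 133 higher and 25 lower, the latter 0.197% of those tested). The smallest adjusted p among members was 0.287, for Fasn. At an unadjusted p under 0.05 there were 5 members, Fasn, Msmo1, Scap, Sqle and Cyp51, all of them lower, where 7.84% of all tested genes passed in either direction and 3.38% passed as lower. This count rested on single libraries, being 1 without replicate 4 labelled Alox15-/-, 13 without replicate 2 of that group, 3 without WT replicate 3 and 12 without WT replicate 4. The DESeq2 Wald test likewise gave 0 members past the adjusted threshold and 4 at an unadjusted p under 0.05. For 2 members, Scap and Insig2, every library labelled Alox15-/- lay below every WT library, where 2.5% of all tested genes did so. The 95% interval lay within 1 log2 unit of 0 for 31 of 32 members, with Scd1 as the exception.

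**Figure D1:**
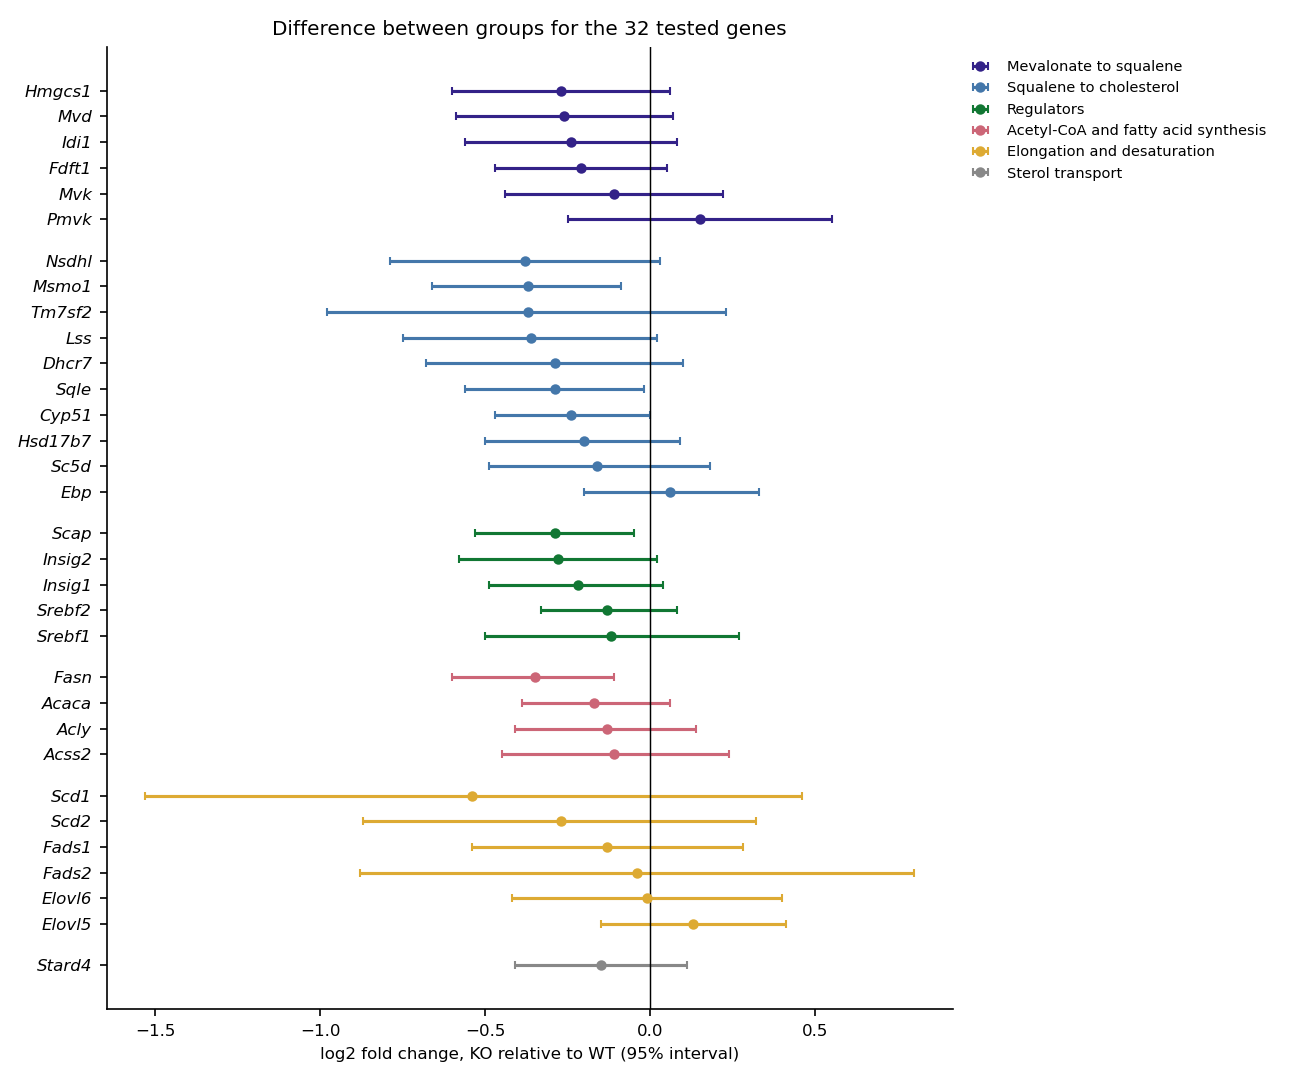
Log2 fold change of each of the 32 tested genes on the x axis, KO (libraries labelled Alox15-/-) relative to WT, with its 95% interval from edgeR's quasi-likelihood fit as bars and colours for the step of the pathway. Points of 29 genes lie left of 0, 5 intervals lie wholly below 0, and the interval of Scd1 is the widest, from -1.53 to 0.46.

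Without the 2 libraries of highest erythroid sum, replicates 2 and 3 labelled Alox15-/-, all 32 members were below 0 with a median log2 fold change of -0.36, and 17 had an unadjusted p under 0.05. These are also the 2 libraries of that group in which the members were highest, so that leaving them out lowers the group's mean by construction. With WT replicate 3 left out the median was -0.11 and 24 members were below 0, and with replicate 2 labelled Alox15-/- left out the median was -0.28. With the summed level of 10 cell cycle genes as a covariate, the median was -0.13 and 22 members were below 0. None of these fits gave a member past the adjusted threshold. Leaving out a single library moved the log2 fold change of 27 of 32 members by over 1.5 times or past 0, WT replicate 3 doing so for 18 members and replicates 2 and 4 labelled Alox15-/- for 14 each. The 5 that no single library moved so far were Fasn, Msmo1, Scap, Insig2 and Fdft1, and for the others a value with 1 library left out stands beside the gene.

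Among the regulators, all 5 transcripts were below the WT mean, with a median log2 fold change of -0.22. Scap, the sterol sensor that escorts SREBPs, was at 67.8, 62.6, 70.2 and 53.8 CPM in replicates 1 to 4 labelled Alox15-/- and at 71.1, 77, 75.8 and 87.5 CPM in the 4 WT libraries. The groups did not overlap, though the nearest libraries were within 1 CPM of each other. The log2 fold change was -0.29 (SE 0.113, 95% interval -0.53 to -0.05), with an unadjusted p of 0.0209 and an adjusted p of 0.502, and the two-sided exact permutation test gave 0.0286, the smallest p that 4 against 4 libraries allow.

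Insig2, which anchors SCAP in the endoplasmic reticulum, was at 15.9, 14.3, 14.9 and 16.5 CPM against 17.8, 19.4, 17.5 and 20.7 CPM in WT. Again the groups did not overlap, and the log2 fold change was -0.28 (SE 0.14, 95% interval -0.58 to 0.02) with an adjusted p of 0.677 and an exact permutation p of 0.0286. Insig2 was among the least variable genes within groups, its SD lying at the 6.54th percentile of all tested genes.

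Insig1, the INSIG gene that is itself an SREBP target, was at 137, 128, 133 and 103 CPM against 126, 145, 177 and 135 CPM. Here the groups overlapped, with a log2 fold change of -0.22 (SE 0.124, adjusted p 0.721) that was -0.11 without WT replicate 3 and -0.29 without WT replicate 1. Srebf2, whose product drives chiefly the sterol genes, was at 193, 162, 191 and 171 CPM against 185, 191, 207 and 200 CPM, a log2 fold change of -0.13 (95% interval -0.33 to 0.08, adjusted p 0.818) that ran from -0.16 to -0.08, the latter without replicate 2 labelled Alox15-/-. Srebf1, whose product drives chiefly the fatty acid genes, was at 42.8, 49.9, 52.5 and 47.2 CPM against 45.9, 57.7, 70.7 and 32.4 CPM. Its groups overlapped fully, WT replicates 3 and 4 being the highest and the lowest of the 8 libraries, and its log2 fold change of -0.12 (95% interval -0.50 to 0.27, adjusted p 0.919) turned to 0.08 without WT replicate 3 and to 0.11 with the cell cycle covariate.

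Ratios within a library, which depend little on library scaling, differed between the groups by less than the spread between libraries. The log2 ratio of Insig1 to Insig2 was 2.98 ± 0.249 in libraries labelled Alox15-/- and 2.91 ± 0.273 in WT libraries (SD, n = 4 each; two-sided exact permutation p = 0.657). The log2 ratio of Srebf1 to Srebf2 was -1.89 ± 0.198 against -1.97 ± 0.466 (exact permutation p = 0.743), and that of Scd1 to Scd2 was -2.89 ± 0.429 against -2.69 ± 0.548 (exact permutation p = 0.571). Adjusted over the 3 ratios, the exact permutation p was 0.743 for each. The difference in the Scd1 to Scd2 ratio, -0.20, was -0.45 without WT replicate 4 and -0.04 without WT replicate 3. These ratios were used to order libraries and not to compare the levels of the genes in a pair.

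**Figure D2:**
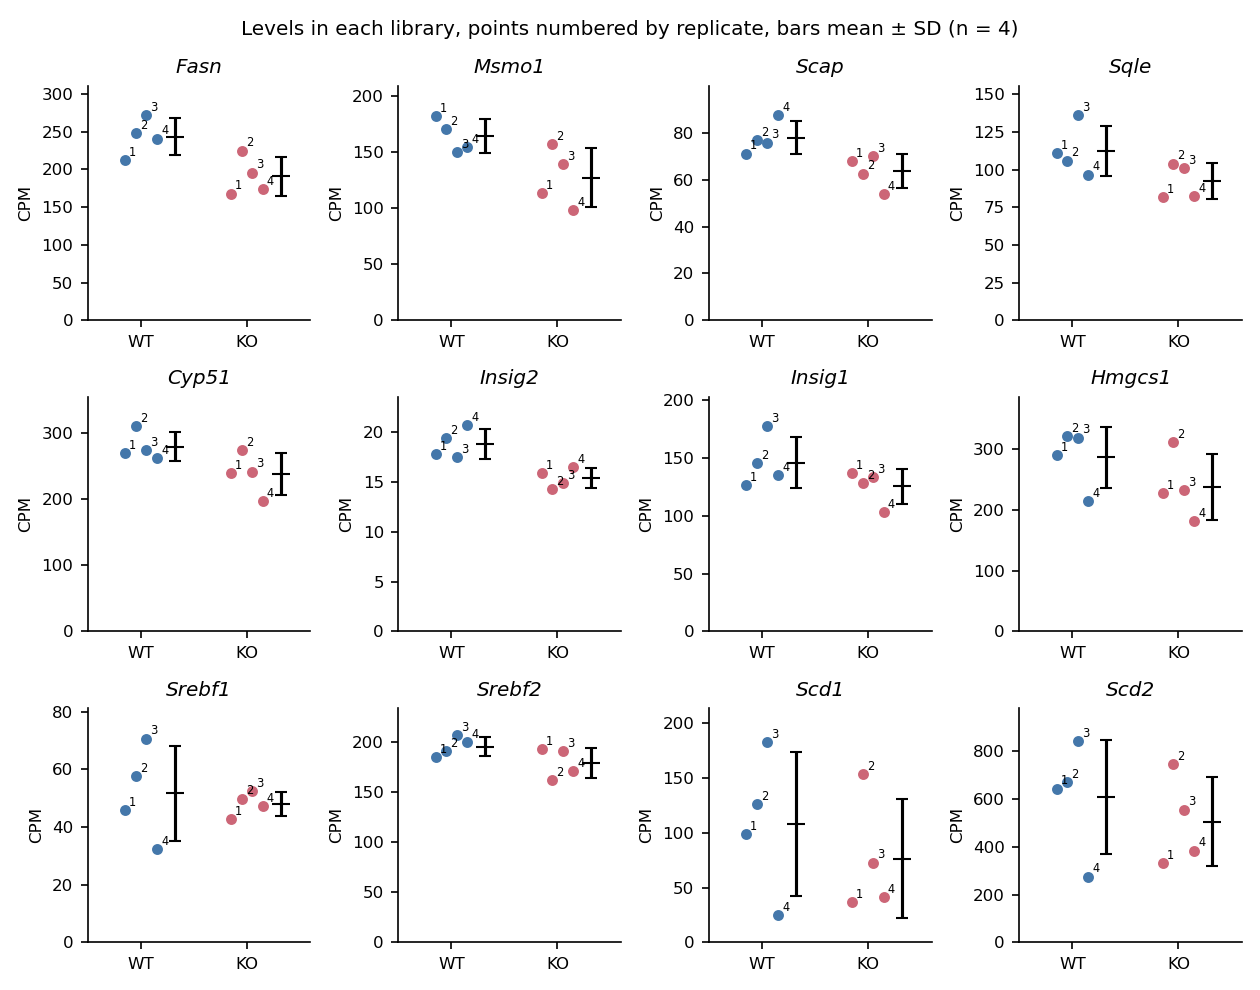
Levels of 12 genes in CPM (y axis, from 0) in each WT and KO (labelled Alox15-/-) library, numbered by replicate, with mean ± SD (n = 4) as bars. Only for Scap and Insig2 among these 12 do the points of the groups not overlap, and for Scd1, Scd2 and Srebf1 WT replicates 3 and 4 are the WT extremes.

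In the mevalonate route, 5 of 6 analysed enzymes were below the WT mean, with a median log2 fold change of -0.22 and none under an unadjusted p of 0.05. Hmgcs1, which makes HMG-CoA, was at 227, 311, 233 and 181 CPM against 290, 322, 319 and 214 CPM in WT. The groups overlapped across most of their range, replicate 2 labelled Alox15-/- lying among the high WT libraries and WT replicate 4 among the low ones, and the log2 fold change was -0.27 (SE 0.156, adjusted p 0.738), from -0.42 without replicate 2 to -0.16 without replicate 4 labelled Alox15-/-. Mvd, which makes isopentenyl diphosphate, had a log2 fold change of -0.26, Idi1, which isomerises it, -0.24, and Fdft1, squalene synthase, -0.21. The kinases Mvk and Pmvk, which phosphorylate mevalonate in turn, were at -0.11 and 0.15, and Mvk turned to 0.05 without WT replicate 3. With 1 library left out Mvd reached -0.10 (WT replicate 3), Idi1 -0.12 (replicate 4 labelled Alox15-/-) and Pmvk 0.03 (replicate 2 labelled Alox15-/-). Levels in this route varied between 1.29-fold (Idi1) and 1.6-fold (Mvd) from the lowest to the highest WT library.

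From squalene to cholesterol, 9 of 10 enzymes were below the WT mean, with the lowest median of the pathway's steps, a log2 fold change of -0.29, or a median of 81.8% of WT. Sqle, squalene epoxidase and a rate-limiting step of the pathway, was at 81.7, 104, 101 and 82.4 CPM against 111, 106, 136 and 96.7 CPM. Only WT replicate 4 fell within the range of the other group, and the log2 fold change was -0.29 (SE 0.125, 95% interval -0.56 to -0.02) with an unadjusted p of 0.0365 and an adjusted p of 0.593, and was -0.18 without WT replicate 3. Lss, which cyclises the epoxide to lanosterol, was at 85.1, 135, 121 and 89.2 CPM against 129, 138, 185 and 97.9 CPM, a log2 fold change of -0.36 (SE 0.181, adjusted p 0.682) with overlapping groups. It was -0.18 without WT replicate 3 and -0.19 with the cell cycle covariate.

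Cyp51, the lanosterol demethylase, was at 239, 273, 241 and 196 CPM against 269, 310, 274 and 262 CPM. Replicate 2 labelled Alox15-/- was the one library of its group above the lowest WT level, and the log2 fold change was -0.24 (SE 0.109, unadjusted p 0.047, adjusted p 0.631), or -0.15 without replicate 4 labelled Alox15-/-. Msmo1, the C-4 methylsterol oxidase, was at 113, 157, 139 and 98.5 CPM against 182, 170, 150 and 154 CPM, with the same replicate 2 as the one overlapping library. Its log2 fold change was -0.37 (SE 0.134, 95% interval -0.66 to -0.09), with an unadjusted p of 0.0137, an adjusted p of 0.413 and an exact permutation p of 0.0857. Nsdhl, which acts beside Msmo1 in removing the C-4 methyl groups, was at 37.7, 61.6, 48.2 and 45.1 CPM against 63.9, 68.2, 78.1 and 37.2 CPM. Here WT replicate 4 was the lowest of all 8 libraries, and the log2 fold change of -0.38 had an SE of 0.192 and an adjusted p of 0.687, and was -0.24 without WT replicate 3.

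The other enzymes of this stretch had log2 fold changes of -0.37 for the reductase Tm7sf2, -0.29 for Dhcr7, the last step to cholesterol, -0.20 for Hsd17b7, which reduces the C-3 ketone, -0.16 for the sterol desaturase Sc5d and 0.06 for the sterol isomerase Ebp. Tm7sf2 varied most, from 8.14 to 25.4 CPM within WT, and its log2 fold change was -0.03 without WT replicate 3 and within 0.01 of 0 with the cell cycle covariate. That of Dhcr7 was -0.11 without replicate 4 labelled Alox15-/-, that of Sc5d was -0.05 without WT replicate 3, that of Hsd17b7 was -0.12 without WT replicate 1, and the sign of Ebp turned to -0.02 without WT replicate 4. None of these 5 passed an unadjusted p of 0.05.

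The 4 enzymes that supply acetyl-CoA and build fatty acids were all below the WT mean, with a median log2 fold change of -0.15. Fasn, which builds palmitate, was at 168, 225, 196 and 174 CPM in the libraries labelled Alox15-/- and 213, 248, 272 and 241 CPM in WT. Replicate 2 labelled Alox15-/- was the one library above the lowest WT level, and Fasn had the smallest p of all members, with a log2 fold change of -0.35 (SE 0.113, 95% interval -0.60 to -0.11), an unadjusted p of 0.00701, an adjusted p of 0.287 and an exact permutation p of 0.0571. Over all alternative settings the adjusted p of Fasn ran from 0.0629 to 0.659 and its log2 fold change from -0.51 to -0.29.

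Acaca, the acetyl-CoA carboxylase of the committed step, was at 49, 52.9, 50.4 and 45.1 CPM against 55.1, 53.2, 61.2 and 50.9 CPM. The difference was small and so was the spread, with a log2 fold change of -0.17 (95% interval -0.39 to 0.06, adjusted p 0.774), or -0.10 without WT replicate 3. Acly, which cleaves citrate to acetyl-CoA, had a log2 fold change of -0.13 and Acss2, which makes acetyl-CoA from acetate, -0.11. Without WT replicate 3 Acly was at -0.02 and Acss2 within 0.01 of 0. Of these genes Fasn, Acaca and Acly lie on chromosome 11, as do Srebf1 and Alox15 itself, at 50.5, 13.8, 30.1 and 10.1 Mb from Alox15 for Fasn, Acaca, Acly and Srebf1. An effect of DNA linked to the Alox15 locus cannot be told apart from genotype in this design.

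The desaturases and elongases had the widest spread between libraries of a group. Their median within-group SD of log2 CPM lay at the 90.7th percentile of all tested genes, against a median of 60.3 over all members and 23.3 for the regulators. Scd1, the stearoyl-CoA desaturase that makes oleate, was at 36.8, 154, 72.8 and 41.2 CPM against 98.7, 126, 183 and 24.6 CPM. It spanned 7.41-fold from WT replicate 4 to WT replicate 3 and 4.18-fold within the other group, so that its log2 fold change of -0.54 (SE 0.466, 95% interval -1.53 to 0.46, adjusted p 0.842) was near the size of its error. Of the 19 alternative settings, the one with no filter on low counts put Scd1 past the adjusted threshold, at a log2 fold change of -0.57, while the cell cycle covariate turned it to 0.07 and leaving out 1 library gave -1.11 to -0.16.

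Scd2, the isoform of that enzyme next to it on chromosome 19, was at 332, 744, 555 and 384 CPM against 643, 670, 842 and 275 CPM. The order of its libraries within each group was that of Scd1, with a log2 fold change of -0.27 (SE 0.279, adjusted p 0.868) that ran from -0.52 without replicate 2 labelled Alox15-/- to -0.07 without WT replicate 3 and was 0.03 with the cell cycle covariate. Fads2 and Fads1, the Δ6 and Δ5 desaturases of polyunsaturated fatty acids that feed the substrates of lipoxygenases, had log2 fold changes of -0.04 and -0.13, which turned to 0.19 and 0.01 without WT replicate 3. Fads2 was sparse, at 8 to 61 counts per library, and varied 3.66-fold within WT. Elovl6, which elongates palmitate, was at -0.01 and Elovl5, which elongates polyunsaturated chains, at 0.13. Elovl6 turned to 0.19 without WT replicate 3, Elovl5 was at 0.03 without replicate 2 labelled Alox15-/-, and none of the 6 had an unadjusted p under 0.05.

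Stard4, which carries cholesterol between membranes, had a log2 fold change of -0.15 (95% interval -0.41 to 0.11, adjusted p 0.838), or -0.04 without replicate 4 labelled Alox15-/-, with 60.7 to 87.5 CPM in libraries labelled Alox15-/- and 72.7 to 88.9 CPM in WT.

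Within each group the members moved together from library to library. In WT, replicate 3 had the highest level for 21 of 32 members and replicate 4 the lowest for 24 (75%), whereas over all tested genes these libraries were highest in 30.8% and lowest in 29.1%. The median deviation of the members from the group mean was 0.23 log2 units in WT replicate 3 and -0.28 in WT replicate 4. In the other group replicate 2 was highest for 21 of 32 members, with a median deviation of 0.23, replicate 3 lay at 0.10, and replicates 1 and 4 lay at -0.17 and -0.20. The corresponding medians over all tested genes were within 0.01 of 0 in the 8 libraries. The deviation between replicates was thus as wide as the median difference between the groups.

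**Figure D3:**
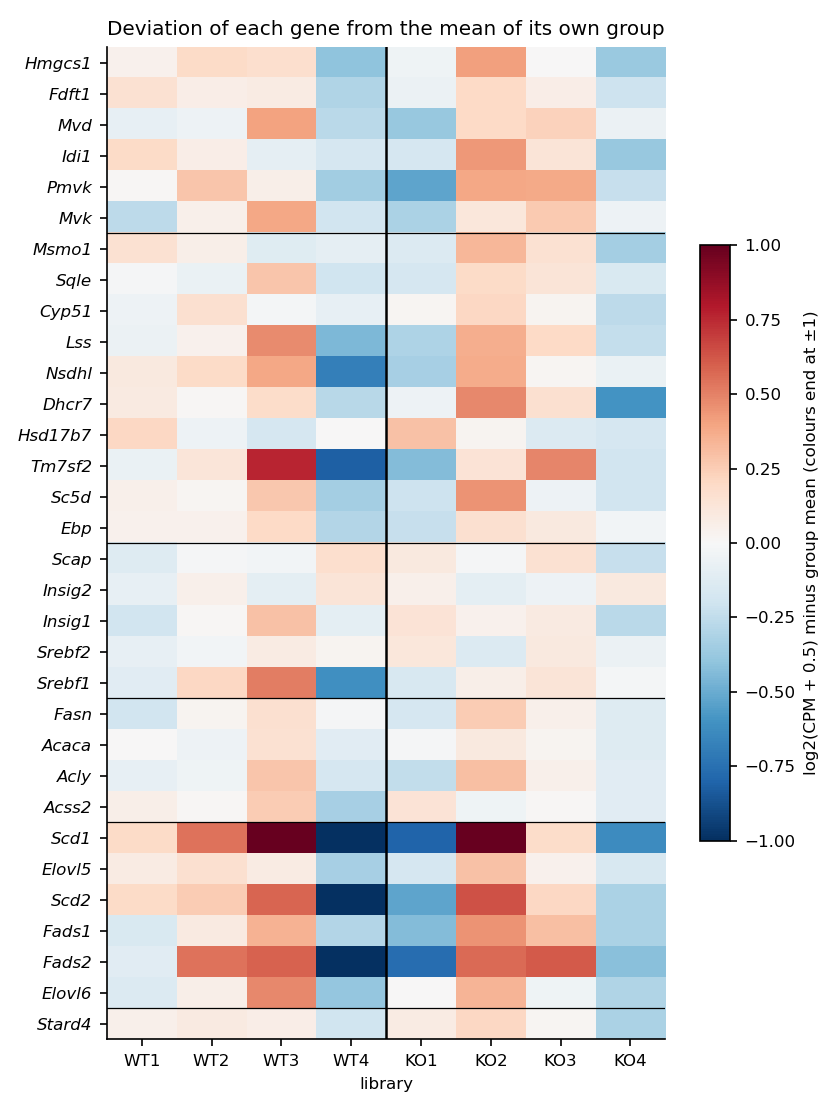
Heat map of log2(CPM + 0.5) minus the mean of the gene's own group, for the 32 genes (rows, ordered by step) in each library (columns), with red above and blue below that mean and colours ending at ±1. WT4 is blue and WT3 red for most enzymes, KO2 red and KO1 and KO4 blue, and the strongest colours are in Scd1, Scd2 and Fads2.

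Fatty acid enzymes and sterol enzymes followed the same order. The 10 fatty acid enzymes had median deviations of 0.32 in WT replicate 3 and -0.33 in WT replicate 4, the 16 sterol enzymes 0.19 and -0.28. The regulators were mixed, with medians of 0.08 and 0.03 in those libraries. Srebf1 deviated as the enzymes did, by 0.51 in WT replicate 3 and -0.61 in WT replicate 4, and Insig1 had the same signs at 0.29 and -0.10, whereas Scap and Insig2 were above their WT mean in replicate 4. The 23 further sterol genes shared part of the order, replicate 2 labelled Alox15-/- being highest for 14 (60.9%, median deviation 0.20), replicate 4 of that group lowest for 14 and WT replicate 4 lowest for 13 (56.5%), while WT replicate 3 was highest for 6. The 23 further fatty acid genes had medians between -0.10 and 0.13. Fatty acid oxidation, the opposite route, was flat, with medians between -0.02 and 0.07 over its 18 genes in the 8 libraries.

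The 10 cell cycle genes followed the enzymes in part. Their median deviation was 0.32 in WT replicate 3 and -0.41 in WT replicate 4, where all 10 were at their lowest WT level, and 0.12 and -0.18 in replicates 2 and 1 labelled Alox15-/-. In replicate 4 of that group it was -0.02, against -0.20 for the sterol enzymes and -0.23 for the fatty acid enzymes. The summed level of the 10 cell cycle genes was 2048 to 2581 CPM in libraries labelled Alox15-/- and 1891 to 3134 CPM in WT. Of the 10, 1 passed the adjusted threshold, the proliferation marker Mki67, with a log2 fold change of -1.69 and an edgeR adjusted p of 0.027. Mki67 was at 19.7, 23.5, 31.6 and 41.2 CPM in replicates 1 to 4 labelled Alox15-/- and 56.8, 75.5, 193 and 50.9 CPM in WT. Its highest level was thus in WT replicate 3. WT replicate 3 was also the deepest library, and replicate 2 labelled Alox15-/- the shallowest. The part of the cell cycle genes and of depth in the members' variation was not tested.

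**Figure D4:**
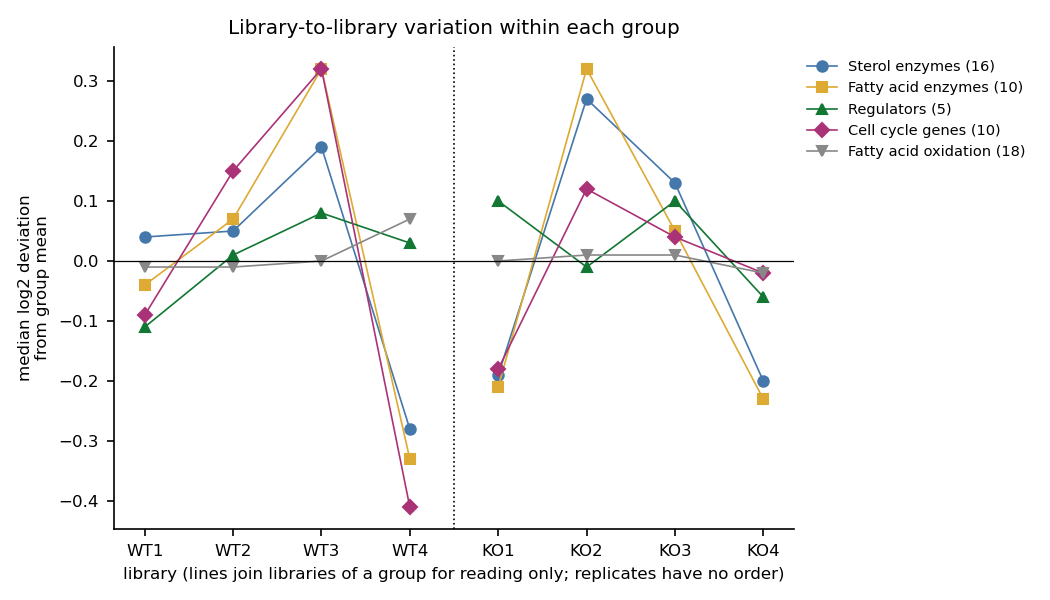
Median deviation from the group mean (y axis, log2 units) of the genes of 5 lists in each library, with the number of genes in brackets. Sterol enzymes, fatty acid enzymes and cell cycle genes are high in WT3 and KO2 and low in WT4 and KO1. In KO4 the sterol enzymes are at -0.20 and the fatty acid enzymes at -0.23, but the cell cycle genes at -0.02. The medians of regulators and fatty acid oxidation stay between -0.11 and 0.10.

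Of 23 further sterol genes tested, 15 were below the WT mean with a median log2 fold change of -0.08, and none passed the adjusted threshold. Npc2, which hands cholesterol out of lysosomes, was at 389, 462, 415 and 391 CPM against 426, 365, 339 and 322 CPM, a log2 fold change of 0.19 (95% interval -0.04 to 0.42, adjusted p 0.722) with overlapping groups. Aacs, which makes acetoacetyl-CoA, was at 40.8, 57.2, 49.1 and 37.9 CPM against 57.1, 52.3, 67.4 and 43.4 CPM, a log2 fold change of -0.27 (95% interval -0.59 to 0.06, adjusted p 0.738), and its groups overlapped too. It was -0.15 without WT replicate 3, and Npc2 was between 0.14 and 0.28 with 1 library left out.

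Of 23 further fatty acid genes, 13 were below the WT mean with a median log2 fold change of -0.05 and none passed, those of smallest p being Acsl5, Hacd3 and Slc25a1 at -0.15, -0.16 and -0.15, each reaching -0.09 or -0.08 with 1 library left out (WT replicate 3 for Acsl5, WT replicate 4 for both others). In fatty acid oxidation 8 of 18 were below, with a median of 0.01 and none past the threshold. Hadha, of the mitochondrial trifunctional protein, was lower in every library labelled Alox15-/- (104 to 110 CPM) than in any WT library (119 to 140 CPM), with a log2 fold change of -0.25 and an adjusted p of 0.459, and Etfdh and Eci1 were at -0.21 and -0.16, or at -0.10 without replicate 2 labelled Alox15-/- and -0.06 without WT replicate 4.

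Among 10 tested genes of the LXR receptors, which sense oxysterols, and of cholesterol efflux, 5 were below the WT mean, with a median of 0.03 and none past the threshold. Rxra, the partner receptor of LXR, was at 45.9 to 64.7 CPM in libraries labelled Alox15-/- and 68.2 to 101 CPM in WT, a log2 fold change of -0.44 with an adjusted p of 0.294. It ran from -0.50 to -0.30 with 1 library left out, and the adjusted p from 0.0141 to 0.794 over all alternatives, passing the threshold with no filter on low counts and with the cell cycle covariate. The lipid transfer protein gene Pltp was at 1.05 (adjusted p 0.317) and Smpdl3a at 0.53 (adjusted p 0.323), the latter higher in every library labelled Alox15-/-, as were 2.75% of all tested genes.

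Some member counts may hold reads of other genes. On the opposite strand, Mvd overlaps Gm20388 (mean 2573 CPM), Fdft1 overlaps Ctsb (140 CPM), Srebf1 overlaps Rai1 (47.9 CPM), Acss2 overlaps Gss (25.7 CPM) and Cyp51 overlaps Akap9 (17.2 CPM), and on the same strand Tm7sf2 overlaps Vps51 (37.4 CPM). Whether counting used the strand is not given in the sources used here, so these values are uncertain. Processed pseudogenes matched the last 500 bases of Acaca, Elovl6, Idi1 and Sc5d at 90% identity or more over at least 300 bases, and those in the table were at 1.55 CPM or less.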

How the data were processed

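The deposited table holds whole-number counts for each symbol in each library, unnormalized, which the authors obtained by MACE-Seq. The submitters' processing notes name Bowtie, edgeR and GRCm38 with no role or version. The labels name a small RNA kit where the methods name the MACE-Seq Kit. Genes with 2 CPM (count over column total) in at least 4 libraries were tested with edgeR 4.0.16 in R 4.3.3 (TMM scaling, quasi-likelihood test, group as the only term, Benjamini–Hochberg adjustment over 12700 genes, threshold 0.05). Printed CPM are TMM-scaled. The SE of a log2 fold change is its size over the square root of F. The biological coefficient of variation was 14.5%. Depth was 3723151 to 9538962 counts. Deviations and ratios used log2(CPM + 0.5), and exact permutation tests were two-sided over the 8 libraries. Steps were tested on simulated data. Positions and overlaps are from GENCODE (GRCm38), copies from blastn 2.17.0 and promoters from RefSeq.

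Members and lists were chosen with earlier results of these data known. All members are named. Values per library are given for the 10 members of smallest p (which include the 5 with unadjusted p under 0.05), the regulators and Hmgcs1, Sqle, Acaca, Fasn, Scd1 and Scd2. In each other list the genes of smallest p, up to 3, are also named, and some genes named by the rule are not reported here. Alternatives were DESeq2 1.42.0, limma-voom (limma 3.58.1), other scalings and filters, a robust fit, a replicate block and each library left out. A fit without 2 libraries and one with a cell cycle covariate were chosen after seeing the data.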

Additional observations from a re-analysis of the deposited data

Results flagged for a closer look

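Of 114 groups of 4 libraries examined by Dixon's test, 3 held a library far from the other 3, and chance alone flags about 1 group in 20. Stard4 was at 72.7 CPM in WT replicate 4, against 86.6 to 88.9 CPM in the other WT libraries. Slc25a1, the mitochondrial citrate carrier, was at 154 CPM in replicate 3 labelled Alox15-/-, against 114 to 117 CPM in the others of its group. The summed CD8 T-cell markers were at 21.3 CPM in WT replicate 2, against 29.9 to 31.6 CPM in the other WT libraries.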

How the results depend on the processing

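Over 19 alternatives for each of the 32 members, 582 of 608 log2 fold changes kept their direction and their side of the adjusted threshold, and 22 members never reversed. The adjusted threshold was passed by 0 members in all alternatives but that with no filter on low counts, where Scd1 passed (1 member, log2 fold change -0.57). Members at an unadjusted p under 0.05 numbered 3 with upper quartile scaling, 15 with no filter, 8 with the replicate block, 1 to 13 with a library left out and 17 without the 2 libraries labelled Alox15-/- of highest erythroid sum. The lowest of these followed from leaving out replicate 4 labelled Alox15-/-, and 13 and 12 from leaving out its replicate 2 and WT replicate 4. The median log2 fold change of the members was -0.28 to -0.11 with a library left out and -0.36 to -0.13 otherwise.

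All tested genes past the threshold numbered 388 with no filter, 86 to 173 with a library left out, 60 without the 2 libraries and 261 with the cell cycle covariate, against 158 genes called in the main comparison. In the LXR and efflux list 1 gene, Rxra, passed with no filter and 1, again Rxra, with the covariate. Without the 2 libraries Pltp did not reach the filter and gave no value. Same-numbered libraries correlated by 0.068, 0.169, -0.184 and -0.017 in their deviations, so the numbers were not taken to pair them; the replicate block gave 146 calls over all genes, 0 members called, and a median of -0.21.

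With the covariate, reversed log2 fold changes were 0.07 for Scd1, 0.03 for Scd2, 0.01 for Mvk, 0.02 for Fads1, 0.11 for Srebf1, 0.46 for Fads2 and 0.17 for Elovl6, and without the 2 libraries -0.04 for Elovl5, -0.27 for Pmvk and -0.06 for Ebp. With a library left out the range crossed 0 for Mvk (-0.20 to 0.05), Fads1 (-0.28 to 0.01), Srebf1 (-0.27 to 0.08), Fads2 (-0.30 to 0.19) and Elovl6 (-0.13 to 0.19), turned by WT replicate 3 alone for Mvk, Fads1 and Srebf1 and by this and other libraries for Fads2 and Elovl6, and for Ebp (-0.02 to 0.14) and the log2 ratios of Insig1 to Insig2 (-0.01 to 0.20) and Srebf1 to Srebf2 (-0.13 to 0.22), turned by WT replicate 4. With the replicate block Fads2 was at 0.04 and Elovl6 at 0.03, and Elovl6 was at 0.02 with upper quartile scaling and 0.00 by DESeq2. The cause was not tested. Depth limits chiefly Fads2, with 8 to 61 counts per library.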
